A study of Mus musculus with 72 samples.

Results

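The genes described here are the nuclear genes of the mitochondrial respiratory chain and ATP synthase. They were chosen by symbol alone, as every gene in the liver or suprachiasmatic nucleus (SCN) table whose symbol begins with Nduf, Sdha to Sdhd, Uqcr, Cox4 to Cox8 or Atp5. Pseudogene symbols ending in -ps were left out, 13 in the liver table and 8 in the SCN table. This gave 99 members among 22823 genes in liver and 98 among 15759 genes in SCN, where Ndufa11b has no entry. By role they comprised 7 core subunits, 33 accessory subunits and 8 assembly factors of complex I, 4 subunits and 4 assembly factors of complex II, 8 subunits of complex III, 12 subunits and 4 tissue isoforms of complex IV, the supercomplex factor Cox7a2l, Ndufa4l2, and 17 subunits of ATP synthase.

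The study fed C57BL/6 mice a diet without methionine and choline (MCD) or an isocaloric control diet for 11 days. The mice lived alone in 12 h of light and 12 h of darkness for 10 days and in constant darkness on the last day, when liver and brain were taken every 4 h from circadian time (CT) 0 to CT20. Each of the 12 groups of diet and time held 2 males and 1 female, which gave 36 libraries of liver (pieces of the left lobe) and 36 of the SCN, the hypothalamic clock, cut by laser from stained brain sections. The samples' labels and the design text name both sexes, whereas the husbandry protocol speaks only of males aged 8 to 12 weeks. Both diets shared the strain, the housing and the final day of darkness, and no group was kept on ordinary chow or sampled before the diets began. Polyadenylated RNA was sequenced, so the measurements are of transcripts and not of protein or respiration. Fewer cells of a type and less RNA per cell cannot be told apart in either tissue.

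Complexes I and II pass electrons from NADH and succinate to ubiquinone, complex III passes them to cytochrome c, and complex IV passes them to oxygen. Complexes I, III and IV pump protons out of the mitochondrial matrix, and ATP synthase makes ATP from the return flow. Most subunits are encoded in the nucleus and assembled with a few that mitochondrial DNA encodes. The liver relies on this chain to oxidise fatty acids, and choline and methionine deficiency in rodents is a classic model of fatty liver.

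The promoters are shown because the members are classic targets of nuclear respiratory factor 1 (NRF1) and of ETS factors of the GABP kind, and because the 4 chosen genes behaved differently on the diets. RefSeq promoter windows (build GRCm38.p6), which run from 250 bases before to 50 bases after a start, matched 79 of the 99 members. Of these, 21 (26.6%) held the NRF1 motif (GCGCA, any base, GCGC) on either strand, against 9.83% of the 12593 matched genes tested in liver and 5.19% of all 27025 genes. The ETS motif CCGGAAG stood in 22 members (27.8%), against 17.4% and 9.93%. The YY1 motif AAGATGGC stood in 11 members (13.9%), against 4.62% and 3.19%. The E-box CACGTG stood in 6 members (7.59%, against 11% of genes tested in liver), and the amino acid response motif TGATGNAA in 0 of the 79 (against 2.95%). The median GC content of the members' windows was 58.7%, and that of genes tested in liver was 59.7%. A match describes letters only, and absence says no more than that these letters are not in the window. The 120 bases before the start are given below 5′ to 3′ on the gene's strand, with NRF1 matches and ETS matches (as CTTCCGG, the reverse strand) in capitals. Sdha and Sdhd, subunits of complex II, were lower on MCD in liver, Cox6a1 was not called, and Ndufaf4 was higher. The values for Cox6a1 and Ndufaf4 did not hold in every fit given below.
Sdha, chr13:74350241-74350360, minus strand: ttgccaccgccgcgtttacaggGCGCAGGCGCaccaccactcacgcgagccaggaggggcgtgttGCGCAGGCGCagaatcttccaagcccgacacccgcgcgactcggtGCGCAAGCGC
Sdhd, chr9:50603850-50603969, minus strand: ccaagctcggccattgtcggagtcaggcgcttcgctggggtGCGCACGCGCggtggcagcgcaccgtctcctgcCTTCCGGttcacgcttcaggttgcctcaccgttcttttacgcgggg
Cox6a1, chr5:115348959-115349078, minus strand: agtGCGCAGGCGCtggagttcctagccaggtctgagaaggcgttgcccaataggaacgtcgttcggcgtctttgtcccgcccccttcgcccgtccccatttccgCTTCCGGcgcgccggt
Ndufaf4, chr4:24897963-24898082, plus strand: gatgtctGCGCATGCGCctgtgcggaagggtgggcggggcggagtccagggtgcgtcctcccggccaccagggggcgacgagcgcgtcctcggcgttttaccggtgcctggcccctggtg

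Library totals ran from 52.6 M to 86.7 M counts in liver (median 64.4 M) and from 23.3 M to 79.8 M in SCN (median 57.0 M). The members took 0.886% to 1.10% of the counts in a liver library and 0.992% to 1.33% in an SCN library. Levels below are CPM (counts per M counts of the library) scaled by the trimmed mean of M values (TMM) within a tissue. Differences are log2, and a call means an adjusted p under 0.05 from edgeR's quasi-likelihood test over all genes tested. The design text counts each library of a group as 1 mouse. One control liver library, CT08 library a, lay low for these genes with TMM (factor 1.18): it was the lowest of the 18 control libraries for 74 of the 79 members that fell on MCD, and below the MCD median for 71 of them. By library totals its summed member level, 9237 CPM, lay within the range of the other controls (9005 to 10501). Of the 5 hepatocyte markers listed for the tissue check, all were in the liver table and their summed level overlapped between the diets (control 72300 to 115000 CPM, MCD 53900 to 115000 CPM), while 3 of the 5 were called lower on MCD and 0 higher. All 8 SCN neuron markers were in the SCN table, at a summed 1680 to 3280 CPM on control. In the annotation (GENCODE M21, GRCm38), 37 of the 99 members overlap an exon of another gene, and the strand setting of the counting is not given in the sources used here.

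In liver, with TMM scaling, transcripts of all 5 complexes were lower on MCD relative to the bulk of genes. Of the 98 members that passed the low-count filter (Cox4i2 did not), 79 fell and 3 rose on the mean over 6 times, 82 calls in all. Over all genes tested, 46.6% were called, 21.2% lower and 25.3% higher. The median difference of the members was -0.25, with a middle range of -0.35 to -0.16, against 0.02 for all 20249 genes tested. Complex II stood lowest by median (-0.41), and 4 of 4 subunits fell. All 7 core subunits of complex I fell (median -0.25), as did 29 of 33 accessory subunits (-0.29), 6 of 8 complex III subunits (-0.34), 10 of 12 complex IV subunits (-0.22) and 16 of 17 ATP synthase subunits (-0.29). The assembly factors were mixed: of 8 for complex I, 4 fell and 1 rose, and of 4 for complex II, 1 fell and 1 rose. With a replicate block neither of these rises was called, and 82 members fell and 1 rose in all (46.2% of all genes called). Scaled by library totals instead, the direction was mixed: 3 of 4 complex II subunits were called lower and 0 higher, complex III had 4 lower and 2 higher, the complex I core 1 and 1, its accessory subunits 8 and 6, ATP synthase 6 and 5, and complex IV 1 and 4.

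**Figure D1:**
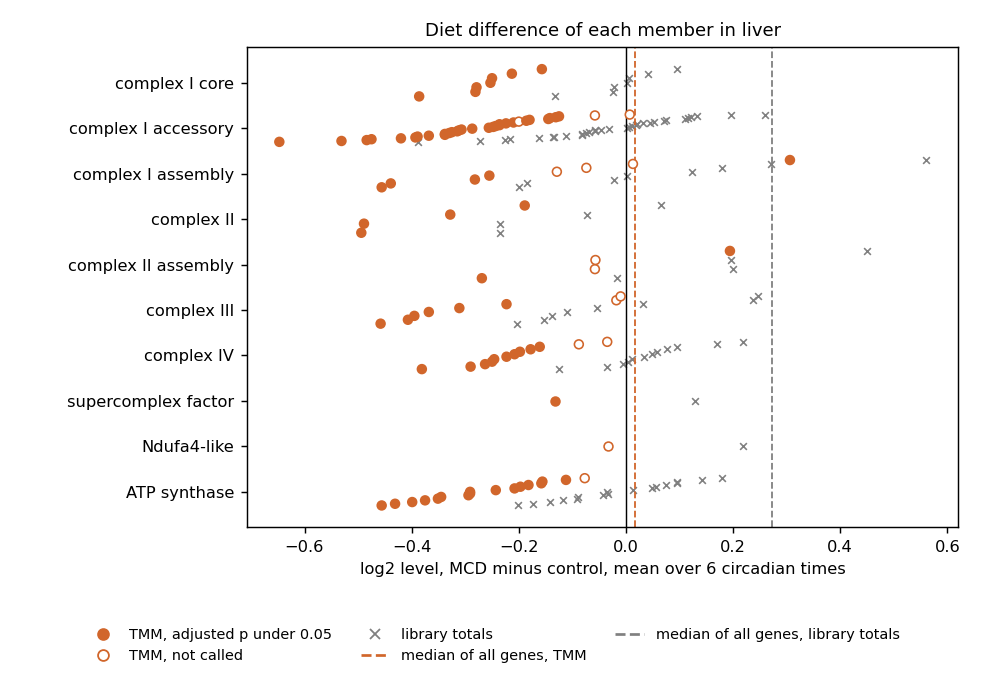
Log2 difference between MCD and control liver for the 94 members with a mean of at least 1 CPM, by role, scaled by TMM (circles, filled where called) and by library total (crosses). Dashed lines mark the median of all genes, 0.02 with TMM and 0.27 with library totals. Both sets of points lie mostly to the left of their own line, a position that a change of scaling leaves nearly as it is by construction.

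Ndufa6, an accessory subunit of complex I with the LYR fold, fell most among members over 1 CPM. Its level was 85.0 at the lowest, 134.8 at the median and 150.3 at the highest over 18 control libraries, and 70.8, 84.7 and 99.4 over 18 MCD libraries. The single control library within the MCD range was CT08 library a, and the other 17 lay above every MCD library. The difference was -0.65 (SE 0.05, edgeR adjusted p = 3.78e-10). Ndufa13, another accessory subunit, also known as GRIM-19, ran from 79.3 through a median of 113.7 to 140.9 on control and from 65.2 through 81.0 to 100.7 on MCD, a difference of -0.53 (SE 0.05, adjusted p = 1.44e-09). Its exons overlap those of Tssk6 on the other strand. Ndufb1 (-0.48), Ndufb11 (-0.48), Ndufa9 (-0.42) and Ndufv3 (-0.39) followed among accessory subunits. At the other end Ndufa8 differed by 0.01 (adjusted p = 0.94) and Ndufb7 by -0.06 (adjusted p = 0.378), so the accessory subunits did not share 1 size of change. With library totals both were called higher on MCD, Ndufa8 by 0.26 (adjusted p = 4.07e-06) and Ndufb7 by 0.20 (adjusted p = 0.000196).

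The core subunits of complex I, which carry the flavin and the iron-sulfur clusters, all fell with TMM scaling. Ndufv2 showed the largest difference (-0.39) and Ndufs7 the smallest (-0.16). Ndufv1, which binds NADH and FMN, went from a control median of 132.4 (100.7 to 152.7) to an MCD median of 111.0 (82.1 to 126.0), a difference of -0.28 (SE 0.04, adjusted p = 5.08e-06). For Ndufv1, 15 of 18 control libraries lay above the highest MCD library. Ndufs1, which carries iron-sulfur clusters, differed by -0.25.

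All subunits of complex II, the succinate dehydrogenase shared with the TCA cycle, were lower. Sdha, the flavoprotein, had a control median of 533.1 (383.8 to 608.5) and an MCD median of 388.3 (289.0 to 454.5). The difference for Sdha was -0.49 (SE 0.05, adjusted p = 1.82e-08), with 17 of 18 control libraries above every MCD library. Sdhb, the iron-sulfur subunit, had a control median of 169.8 (118.3 to 202.7) and an MCD median of 115.6 (95.6 to 145.8), a difference of -0.49 (SE 0.05, adjusted p = 4.77e-09). The membrane anchors Sdhd and Sdhc differed by -0.33 and -0.19. Sdhaf1, the LYR assembly factor that serves the iron-sulfur subunit, went the other way: its control libraries ran from 8.73 through 14.3 to 18.9 and its MCD libraries from 10.5 through 15.6 to 22.3, with wide overlap. The fitted difference of Sdhaf1 was 0.19 (SE 0.06, adjusted p = 0.0117), a call that was lost with a replicate block. Among the other complex II assembly factors, Sdhaf4 fell (-0.27), and Sdhaf2 (-0.06) and Sdhaf3 (-0.06) were not called. With library totals Sdhaf2 (0.20, adjusted p = 0.00112) and Sdhaf3 (0.20, adjusted p = 0.0251) were called higher, and Sdhaf4 (-0.02, adjusted p = 0.83) was not called. Sdhaf1 exons overlap an uncharacterised gene on the other strand.

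Complex III split into lowered subunits and 2 that were not called. Uqcrb had a control median of 95.1 (51.8 to 110.8) and an MCD median of 69.2 (39.5 to 86.4), a difference of -0.46 (SE 0.08, adjusted p = 4.78e-05), and 16 of 18 control libraries lay above every MCD library. Uqcr11 (-0.41), Uqcrq (-0.40) and the hinge protein Uqcrh (-0.37) were similar, and the core proteins Uqcrc2 and Uqcrc1 differed by -0.31 and -0.22. Uqcrfs1, the Rieske iron-sulfur protein, stood at a median of 168.3 (141.1 to 188.9) on control and 163.9 (132.5 to 184.5) on MCD, a difference of -0.02 (SE 0.04, adjusted p = 0.756). Uqcr10, a small subunit near the Rieske protein, differed by -0.01 (SE 0.04, adjusted p = 0.876). For Uqcrfs1 and Uqcr10 the diets' libraries overlapped almost wholly. With library totals both were called higher on MCD, Uqcrfs1 by 0.24 and Uqcr10 by 0.25 (adjusted p = 3.59e-07), and Uqcr10 also with the length trend removed (0.08, adjusted p = 0.0474).

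Of the 12 complex IV subunits other than the tissue isoforms, Cox7b (-0.38) fell most, and Cox4i1 (-0.16), Cox5a (-0.21) and Cox5b (-0.18) fell by less. With library totals Cox4i1 (0.10, adjusted p = 0.00981) and Cox5b (0.08, adjusted p = 0.0264) were called higher. Ndufa4, counted here with complex IV, differed by -0.25 and Cox7a2 by -0.25. Cox6a1, the form of subunit 6a found outside muscle, had a control median of 186.6 (149.1 to 217.4) and an MCD median of 185.3 (138.7 to 216.4), a difference of -0.04 (SE 0.05, adjusted p = 0.56). Cox8a differed by -0.09 and was not called (adjusted p = 0.1), but was called lower without control CT08 library a (adjusted p = 0.00974) and higher with library totals (0.17, adjusted p = 4.28e-05). Cox6a1 was called higher with library totals as well (0.22). The supercomplex factor Cox7a2l was lower by -0.13 (adjusted p = 0.0276), a call that was lost without control CT04 replicate 3, control CT08 replicate 3 or library b, or MCD CT16 or CT20 replicate 3 (highest adjusted p = 0.0546). It was lost with the length trend removed (adjusted p = 0.0651), and with library totals Cox7a2l was called higher (0.13, adjusted p = 0.0225).

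The 16 ATP synthase subunits that fell did so by unequal amounts, from Atp5md to Atp5mpl (-0.11). The Atp5mpl call was lost with the length trend removed (adjusted p = 0.124). With library totals Atp5mpl (0.14), Atp5b (0.07), Atp5h (0.10) and Atp5pb (0.10) were called higher. Atp5md, a small subunit also called DAPIT, had a control median of 62.6 (44.7 to 72.4) and an MCD median of 45.5 (37.3 to 55.5), a difference of -0.46 (SE 0.05, adjusted p = 2.95e-08). The alpha subunit gene Atp5a1 and the gene for the catalytic beta subunit, Atp5b, differed by unequal amounts, Atp5a1 by -0.38 (SE 0.05, adjusted p = 1.66e-06) and Atp5b by -0.18 (SE 0.04, adjusted p = 0.000405). The central stalk subunit Atp5c1 differed by -0.43, and its partner Atp5d by -0.08, which was not called (adjusted p = 0.128). Atp5d was called lower without control CT08 library a (adjusted p = 0.0189) and higher with library totals (0.18, adjusted p = 4.91e-05). Of the 3 genes for the membrane ring, Atp5g1 differed by -0.29, Atp5g2 by -0.21 and Atp5g3 by -0.20.

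Ndufaf4, an assembly factor of complex I, rose most among members over 1 CPM. Its level was 20.6 at the lowest, 34.3 at the median and 55.9 at the highest on control, and 25.0, 43.8 and 55.1 on MCD. The ranges overlapped almost wholly. The difference was 0.31 (SE 0.10, adjusted p = 0.0141), a call that was lost with a replicate block. The assembly factors Ndufaf3 (-0.46), Ndufaf8 (-0.44), Ndufaf2 (-0.28) and Ndufaf1 (-0.26) fell.

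**Figure D2:**
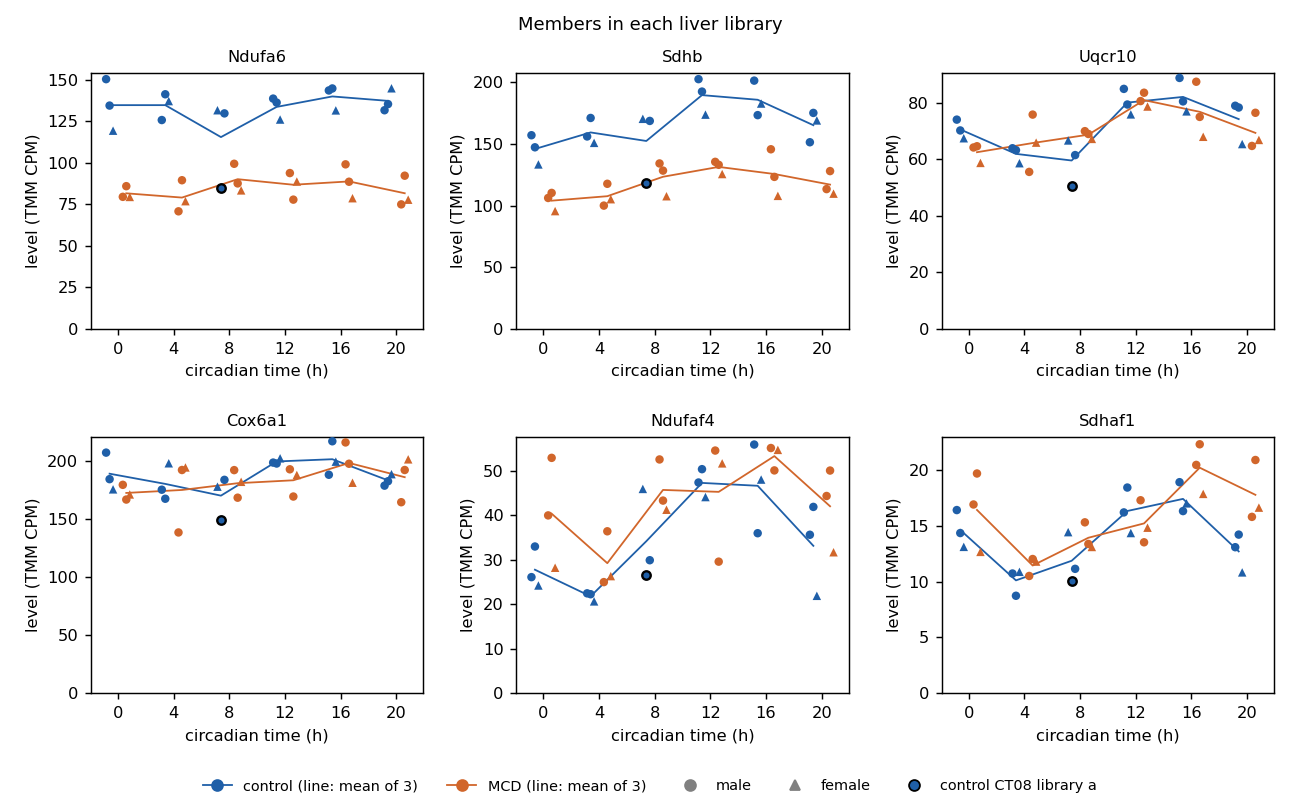
Level (TMM-scaled CPM, axes from 0) of 6 members in each of 36 liver libraries by circadian time, with lines through the mean of 3. In Ndufa6 17 and in Sdhb 16 of 18 control libraries lie above every MCD library, in Uqcr10 and Cox6a1 the diets overlap, and in Ndufaf4 and Sdhaf1 both diets rise from CT04 to CT16.

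No member separated all 18 control from all 18 MCD libraries, as 0.306% of all genes did. With control CT08 library a left out, 5 members did so (1.68% of all genes), and 87 members were called, 83 of them lower, where 49.5% of all genes were called. With TMM, 67 members had a negative difference at all 6 times, against 15.7% of all genes, and 66 of the 67 were called on the mean. At single times, with 3 libraries a group, 54 members were called at 1 or more times, against 35.3% of all genes. The numbers called were 37 at CT00, 26 at CT04, 30 at CT12, 28 at CT16 and 24 at CT20, where the shares of all genes called were 12.6%, 18.2%, 15.2%, 12.5% and 11.3%. The medians at those times lay between -0.33 and -0.27. At CT08 edgeR called 0 members (1.3% of all genes), with 9 at an unadjusted p under 0.05 and a median of -0.08. Without control CT08 library a, which left replicate 3 and library b in that group, 13 members were called at CT08 (6.08% of all genes). The median of all 98 was then -0.22. That library lay low for these same members, so the added calls without it are no independent result. Direction at single times turned with the scaling: with library totals 13 members were called lower and 5 higher at CT00, 6 and 10 at CT04, 0 and 2 at CT08, 2 and 13 at CT12, 7 and 3 at CT16, and 9 and 5 at CT20. The shares of all genes called at these times were then 19.6%, 27.1%, 1.37%, 32.0%, 20.6% and 17.6%. In fits of the diet within each sex 69 members fell and 3 rose in the 24 male libraries (39.6% of all genes called), and 62 fell and 0 rose in the 12 female libraries (24.8%).

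Whether the members fell, and by how much, depends on the scaling. TMM sets the bulk of genes equal between libraries, and its mean factor was 0.918 ± 0.0739 (SD, n = 18) on control and 1.10 ± 0.0793 (n = 18) on MCD. The summed level of the members was 10730 ± 1010 CPM (SD, n = 18) on control and 8909 ± 802 CPM (n = 18) on MCD with TMM. With library totals alone the sums were 9785 ± 499 and 9715 ± 594 CPM, which differed by less than the spread between libraries. Under library totals 54 members were called, 26 lower and 28 higher, where 60.1% of all genes were called, so the members were no longer called more often than other genes. Their median was 0.01, and the median of all genes moved to 0.27. Relative to the median of all genes the members' median was -0.27, a difference that a change of scaling leaves nearly as it is by construction. The 26 members that fell under library totals had all fallen with TMM, and 12 members that fell with TMM were called higher under library totals. These were Atp5b, Atp5h, Atp5mpl, Atp5pb, Cox4i1, Cox5b, Cox7a2l, Ndufa1, Ndufa7, Ndufab1, Ndufs4 and Ndufs7. Ndufa6 (-0.39), Ndufa13 (-0.27), Sdha (-0.24), Sdhb (-0.24), Ndufb1 (-0.23), Ndufb11 (-0.22), Uqcrb (-0.20) and Atp5md (-0.20) were lower in both, and Ndufaf4 (0.56) and Sdhaf1 (0.45) were higher in both. The 50 most abundant genes of a library took 35.2% ± 1.31 (SD, n = 18) of the counts on control and 32.6% ± 1.66 (n = 18) on MCD. Their part in the result was not tested.

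**Figure D3:**
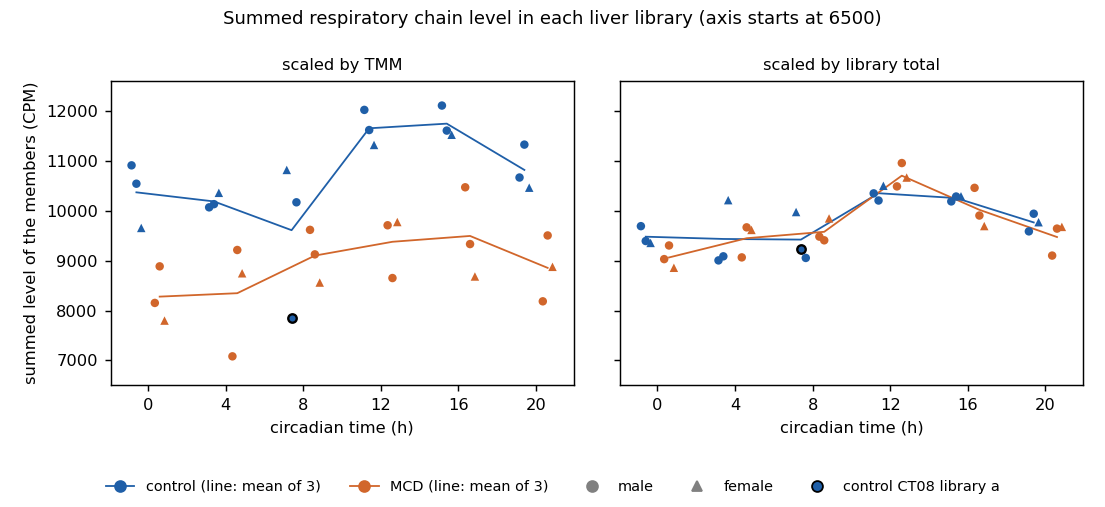
Summed level of the members in each liver library by circadian time, in CPM scaled by TMM (left) and by library total (right), with lines through the mean of 3 libraries and an axis that does not start at 0. With TMM the control mean of 10730 lies above the MCD mean of 8909 while library a of control CT08 lies at 7844, and with library totals the diets overlap.

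With TMM scaling, other genes of respiration moved in part with the members in liver. The values in this paragraph are given with TMM only. With library totals the median of all genes was 0.27 in place of 0.02. Of the 13 subunits that mitochondrial DNA encodes, 12 fell and 0 rose, with a median of -0.51. Among 17 electron carriers and entry enzymes, including cytochrome c and ubiquinone synthesis, 11 fell and 2 rose. Cyc1, the cytochrome of complex III that the symbol rule leaves out, differed by -0.24 (SE 0.05, adjusted p = 0.000173). Of 31 assembly factors outside the rule 13 fell and 7 rose, of 78 mitochondrial ribosomal proteins 29 fell and 18 rose, and of 13 TCA cycle enzymes 7 fell and 3 rose. Of 15 regulators, 5 rose and 2 fell. Beside these counts stand the shares over all genes given above, 21.2% lower and 25.3% higher, and the regulators' 7 calls of 15 are at the overall 46.6%. Ppargc1a, a coactivator of mitochondrial genes, was among those that rose (0.38, adjusted p = 0.00232), as was its partner Esrra (0.21, adjusted p = 0.0123), whereas Nrf1 (0.16, adjusted p = 0.0579) was not called. Markers of liver cells moved too. Of the 5 hepatocyte markers 3 fell and 0 rose, as given above, and 5 of 5 macrophage markers in the table rose, with a summed 191 to 474 CPM on control and 258 to 579 on MCD. Of 4 endothelial markers 3 rose, and of 5 erythrocyte markers 4 fell. Their part in the members' fall was not tested.

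The liver libraries also fell into 2 kinds by the level of the mitochondrial transcript mt-Nd6, 21 low (8 control, 13 MCD) and 15 high (10 control, 5 MCD), with a gap of 1.8 log2 units between them. Within the low kind 61 members fell (62 called, against 24.1% of all genes), and within the high kind 72 fell (73 called, against 28.3%).

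In liver the called daily rhythms of the members mostly peaked between CT12 and CT20. A 24 h rhythm was called for 16 of 98 members on control, where 17.8% of all genes were called, and for 17 on MCD, where 28.2% were. With library totals the MCD count was 41, where 23.7% of all genes were called, so the order of the members and all genes on MCD turned with the scaling. On control the count lay close to the share of all genes, and the order turned with library totals (19 members, 17.4% of all genes), without control CT08 library a (21 and 17.5%) and with DESeq2 (33 and 22.7%). On control all 16 fitted peaks lay between CT12 and CT20, with a median at 15.9 h. Of all 3611 rhythmic genes, 20.8% peaked from CT12 to CT16 and 13.4% from CT16 to CT20. On MCD, 13 of the 17 peaks lay from CT12 to CT16 and 2 from CT16 to CT20, with a median at 13.5 h, where 11.9% and 24.3% of all 5704 rhythmic genes did. The MCD peaks ran from 10.2 h to 21.4 h. With library totals 17 of 19 called peaks on control and 31 of 41 on MCD lay between CT12 and CT20, the earliest at 4.6 h and 8.5 h. Of 10 members called on both diets, 9 peaked earlier on MCD, and the median shift was 2.73 h. Of the 2271 genes called on both, 1811 peaked earlier, and the median shift was 1.74 h. Without control CT08 library a the median called peak was at 14.5 h on control and 13.3 h on MCD, a smaller gap between diets. The counts rest on single libraries. On control the count was 42 without control CT08 replicate 3 and 25 without MCD CT04 replicate 1. It was 7 without control CT04 replicate 2 or CT16 replicate 1, 8 without control CT04 replicate 1 and 9 without control CT16 replicate 3. On MCD it was 31 without MCD CT04 replicate 2 and 30 without control CT08 library a. It was 8 without MCD CT00 replicate 1 or 3, 9 without MCD CT12 replicate 3 or CT16 replicate 1, and 11 without MCD CT12 replicate 1.

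Ndufaf4 had the widest control rhythm among members over 1 CPM. Its 3 control libraries read 20.6, 22.2 and 22.4 at CT04 and 44.1, 47.3 and 50.3 at CT12, with no overlap between these times. The fitted range from trough to peak was 1.08 log2 units with a peak at 14.2 h (adjusted p = 0.0015). On MCD the Ndufaf4 range was 0.63 and was not called (adjusted p = 0.0546), and the test of the difference between diets gave an adjusted p of 0.591. Sdhaf1 was called on both diets, with ranges of 0.60 at 15.7 h (adjusted p = 0.0036) and 0.68 at 17.5 h (adjusted p = 0.000599). Its control libraries read 8.73, 10.7 and 10.9 at CT04 and 16.3, 17.0 and 18.9 at CT16.

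Among structural subunits the ranges were smaller. Uqcr10, whose mean level was not called between diets with TMM, was rhythmic on both, with 0.44 log2 units at 16.65 h on control (adjusted p = 0.00161) and 0.35 at 13.5 h on MCD (adjusted p = 0.00813). Ndufb10, of the membrane arm of complex I, had ranges of 0.43 (adjusted p = 0.013) and 0.46 (adjusted p = 0.00513). Ndufa5 (0.50 and 0.52), Ndufs7 (0.41 and 0.35), Ndufa11 (0.33 and 0.35), Atp5g3 (0.42 and 0.32), Atp5d (0.34 and 0.26), Sdhb (0.35 and 0.33) and Cox5a (0.30 and 0.29) were also called on both diets. On control alone the test called Ndufaf6 (0.50), Ndufb3 (0.43), Ndufa8 (0.36), Ndufb4 (0.35) and Cox8a (0.30). On MCD alone it called Sdhaf3 (0.55), Ndufb4c (0.46), Ndufaf1 (0.40), Ndufc1 (0.33), Sdhd (0.31), Uqcrh (0.30) and Cox7a2 (0.26). Several of these calls rest on single libraries. When 1 library was left out, those of Ndufb4 and Cox8a on control held in 11 and 13 of 36 fits. On MCD those of Sdhd and Uqcrh held in 9 each, that of Atp5d in 13 and that of Atp5g3 in 16. Of the other calls the fewest fits held for Cox5a on control, 24 of 36. A call on 1 diet does not show a difference: edgeR's test of the difference in rhythm called 0 members (4.87% of all genes), with 6 at an unadjusted p under 0.05. For this difference limma-voom called 0 members, DESeq2 1 and edgeR with library totals 3 (3.75% of all genes). Ndufaf1, an assembly factor that peaked at 21.4 h on MCD, came nearest (adjusted p = 0.0542), and was called without control CT08 library a, MCD CT00 replicate 3, MCD CT04 replicate 2, MCD CT08 replicate 2 or MCD CT12 replicate 3.

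The effect of diet in liver differed between females and males for 2 members, near the share of all genes (1.77%). Library totals, a replicate block and removal of the length trend each kept only 1 of these 2 calls. Ndufaf3, an assembly factor of complex I, was 8.44 ± 1.04 CPM (SD, n = 6) in control females and 4.89 ± 0.812 (n = 6) in MCD females. In males Ndufaf3 was 8.44 ± 1.02 (n = 12) on control and 6.90 ± 0.801 (n = 12) on MCD. Females and males differed in this effect by -0.51 (SE 0.13, edgeR adjusted p = 0.0432), and the call held in 12 of 36 fits that left out 1 library. Its exons overlap Impdh2 on the other strand. Cox7a2l went from 74.5 ± 7.57 (SD, n = 6) to 58.0 ± 6.21 (n = 6) in females and from 69.5 ± 9.82 (n = 12) to 68.4 ± 4.54 (n = 12) in males, a difference of -0.35 (adjusted p = 0.0208). The Cox7a2l call was lost without control CT04 replicate 3, control CT08 replicate 3 or MCD CT20 replicate 3 (highest adjusted p = 0.057).

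In SCN the diet left no called difference among the members. The test of edgeR called 0 of 98 members on the mean over times, where 0.0635% of all genes were called, and limma-voom and DESeq2 also called 0. An unadjusted p under 0.05 was found for 3 members, Sdhaf2 (-0.14) and Ndufaf7 (-0.12) among them. The members' median difference was -0.04 and that of all genes 0.003. Sdha, which fell in liver, differed by -0.04 (SE 0.02) in SCN, and Atp5a1 by -0.03 (SE 0.03). No member was called at any single time in SCN, where 0.0571% of all genes were at 1 or more times, and 0 to 3 members had an unadjusted p under 0.05 at each.

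The SCN rhythms of the members were few. On control 3 members were called, against 15.1% of all genes, and on MCD 1 was, against 16.1%. Cox6a2, the form of subunit 6a typical of heart and skeletal muscle, was called on both. Its control libraries read 7.01, 7.14 and 9.55 CPM at CT00 and 2.05, 2.34 and 3.15 at CT12. Its MCD libraries read 5.82, 8.40 and 9.14 at CT00 and 1.47, 2.45 and 3.34 at CT12. At both diets the CT00 libraries lay above all CT12 libraries, and at CT04 and CT20 the 3 libraries of a group spread widely, up to 15.5 for 1 MCD library at CT04. The fitted Cox6a2 range was 1.78 log2 units with a peak at 23.3 h on control (edgeR adjusted p = 0.00356) and 1.88 with a peak at 23.0 h on MCD (adjusted p = 0.00195). Both calls held in all 36 fits that left out 1 library. Cox6a1, the form found in most tissues, had an MCD range of 0.15 and was not called (adjusted p = 0.682). Of 5 striated muscle markers, Acta1 and Myh4 have no entry in the SCN table, and the other 3 summed to 6.43 to 70.1 CPM on control and 4.18 to 64.0 on MCD. Their part in the Cox6a2 level was not tested. Cox6a2 exons overlap Itgad on the other strand.

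**Figure D4:**
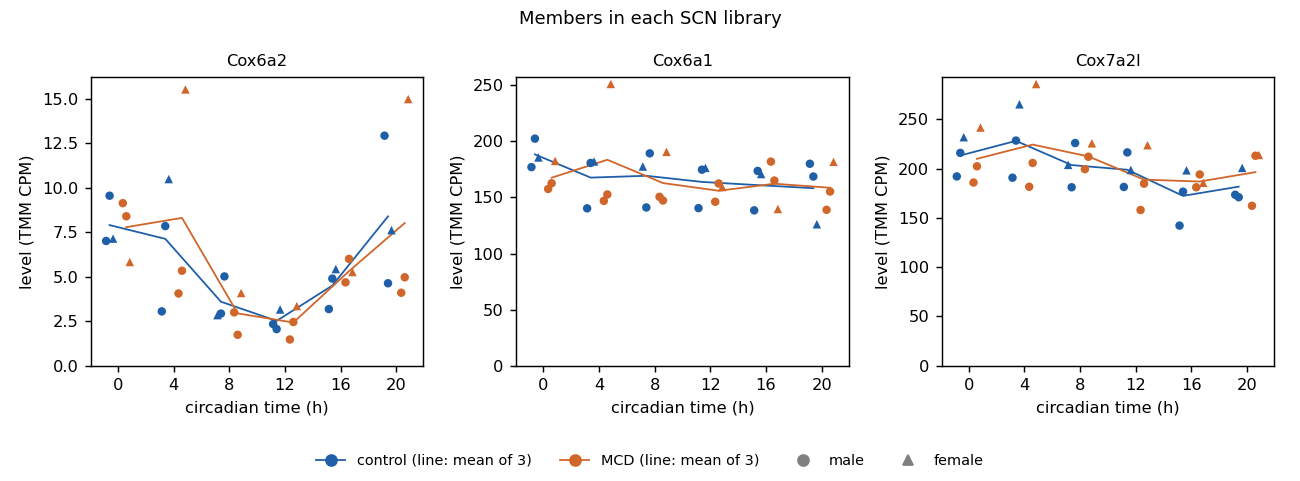
Level (TMM-scaled CPM, axes from 0) of Cox6a2, Cox6a1 and Cox7a2l in each of 36 SCN libraries by circadian time, with lines through the mean of 3. Cox6a2 is low at CT08 and CT12 and higher from CT20 to CT04 on both diets, while Cox6a1 shows no such course.

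The supercomplex factor Cox7a2l had an SCN control range of 0.36 with a peak at 4.47 h (adjusted p = 0.0309), and the accessory subunit Ndufb5 a range of 0.33 with a peak at 2.64 h (adjusted p = 0.0496). The Cox7a2l call was lost without control CT04 replicate 2 or 3, CT08 library b, CT12 replicate 1 or CT16 replicate 1, each of which left Cox6a2 as the 1 member called. The Ndufb5 call held in 12 of 36 such fits. Library totals and a replicate block each kept 2 of the 3 control calls. Without control CT16 replicate 2, 5 members were called. On MCD the ranges were 0.25 and 0.13, not called. On MCD 13 of the 36 fits gave more than 1 call, up to 4 without MCD CT04 replicate 3. The test of the difference in rhythm between diets called 0 members by edgeR, limma-voom and DESeq2 (0.0127% of all genes by edgeR), with 1 at an unadjusted p under 0.05.

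Between sexes, a comparison added after the values were seen, 24 members were higher and 1 lower in the 12 female than in the 24 male SCN libraries. Of all genes 9.89% were called, 4.91% higher. The female libraries are also the third replicate of each group, so that sex and replicate cannot be told apart. They were also shallower, with a median of 44.3 M counts (23.3 M to 65.3 M) against 59.8 M (27.5 M to 79.8 M). Depth is thus partly mixed with sex. Atp5md read 158.3 at the lowest, 201.9 at the median and 278.8 at the highest in females and 104.4, 157.2 and 211.6 in males, which overlap, and differed by 0.35 (SE 0.09, adjusted p = 0.0144). Cox7c, with a female median of 132.3 (104.5 to 172.2) and a male median of 107.7 (85.7 to 133.6), differed by 0.29 (SE 0.06, adjusted p = 0.00364). Cox6b2 (0.62), Atp5l (0.30), Uqcr11 (0.30), Atp5e (0.29), Ndufb1 (0.27) and Ndufb4c (0.26) were also higher, and Sdha was lower (-0.11). Among libraries of at least 40 M counts, 7 female and 21 male, 0 members were called at a median difference of 0.09, where 0.209% of all genes were called. In all libraries the members' median was 0.12. With the length trend removed 16 members were higher and 1 lower, at a median of 0.06, where 9.52% of all genes were called. Leaving out 1 library gave 12 (without MCD CT04 replicate 3), 15 (without MCD CT12 replicate 3) to 45 calls (without MCD CT16 replicate 3). In liver Cox7a2 alone was called between sexes (-0.19 in females, adjusted p = 0.00195), against 9.44% of all genes.

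The diet difference itself was tested between tissues over the 14491 genes in both tables. It was lower in liver than in SCN for 58 members and higher for 1, against 15.8% and 18.9% of all genes (34.7% in all). For Ndufa6 the tissues' diet effects differed by -0.63 (SE 0.08, edgeR adjusted p = 1.6e-08), for Sdha by -0.46 (adjusted p = 3.53e-09) and for Sdhb by -0.44 (adjusted p = 8.31e-07). Of complex II, 3 of 4 subunits were called, of the complex I core 6 of 7, of complex III 6 of 8, of ATP synthase 13 of 17 and of complex IV 5 of 12. The member that was higher was Cox6a2, with a liver level near 0. Its call was lost with limma-voom (adjusted p = 0.072) and without replicate 2, and its fitted size is no measure of the change because most control liver libraries are at 0. With library totals 23 members were lower and 8 higher, where 42.4% of all genes were called. Without replicate 3, the females, 29 were lower and 2 higher, where 30.3% were.

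On the control diet, liver held more of most subunit transcripts than SCN. With 1 TMM scaling over both tissues, 71 members were higher in liver and 21 lower, where 44.1% and 46.3% of all genes were (90.4% in all), and the members' median difference was 0.63 against -0.04. All 4 complex II, 8 complex III and 12 complex IV subunits were higher in liver, as were 16 of 17 for ATP synthase. Uqcrq, a subunit of complex III, ran from 240.0 to 396.7 CPM in 18 liver libraries and from 65.5 to 106.6 in 18 SCN libraries. The difference was 2.14 (SE 0.07, adjusted p = 1.28e-34), without overlap. Sdhd differed by 2.10, Uqcrc1 by 1.71, Atp5a1 by 1.68 and Atp5b by 1.63. The directions depended on the scaling: with library totals 33 members were higher in liver and 49 lower, where 91% of all genes were called, and the median of all genes was -0.75.

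**Figure D5:**
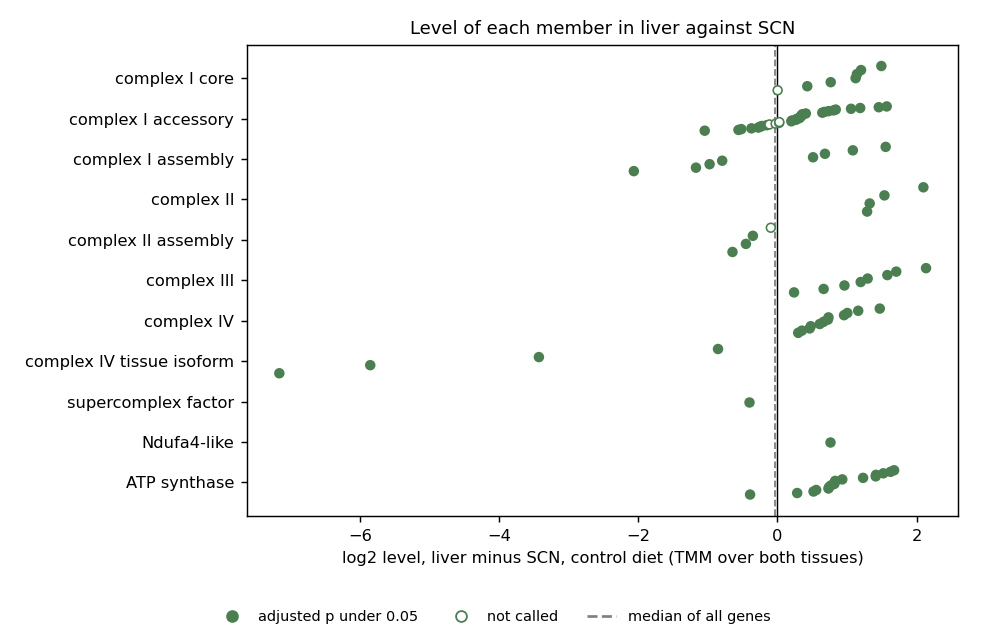
Log2 level in control liver minus control SCN for the 98 members in both tables, by role, with 1 TMM scaling over both tissues. Complexes II, III and IV lie to the right of 0, while the 4 tissue isoforms of complex IV lie to the left.

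Some complex I assembly factors and the 4 tissue isoforms of complex IV were higher in SCN. Ndufaf5, an assembly factor with a methyltransferase fold, ran from 5.68 to 7.67 CPM in control liver and from 24.0 to 31.3 in control SCN, a difference of -2.06 (SE 0.06, adjusted p = 2.64e-35). Ndufaf3 (-1.17), the accessory subunit Ndufa12 (-1.05) and Ndufaf7 (-0.98) followed, whereas Ndufaf1 was higher in liver (1.56). The isoform pairs were compared per kilobase of exon, as a share of the 2 forms together. Cox6a2 made up 3.30% ± 1.63 (SD, n = 18) of Cox6a1 and Cox6a2 in control SCN and 0.0151% ± 0.0272 in control liver. Cox7a1, the form of subunit 7a typical of heart and muscle, made up 3.32% ± 1.86 of its pair with Cox7a2 in control SCN and 1.48% ± 0.676 in control liver. In MCD liver Cox7a1 made up 0.81% ± 0.485 of its pair. Cox6b2, known from testis, made up 1.01% ± 0.179 of its pair in control SCN, and Cox4i2, known from lung, 0.608% ± 0.278. Ndufa4l2, a relative of Ndufa4 induced by low oxygen, was higher in liver by level (0.75, adjusted p = 0.000128) and made up 1.26% ± 0.499 of its pair in control SCN and 1.08% ± 0.313 in control liver.

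In liver these isoforms rest on few counts. Cox7a1 had 768 counts over 18 control libraries and 445 over 18 MCD libraries, 2 of them at 0. It fell by 1.20 on the log2 scale (SE 0.30, adjusted p = 0.00189), a size that these zeros make imprecise. Cox6a2 had 31 counts over 18 control libraries, 13 of them at 0, and 221 over 18 MCD libraries, 6 of them at 0. The test called Cox6a2 higher on MCD (adjusted p = 0.00829), but not without MCD CT08 replicate 2 or MCD CT16 replicate 2, and with so many zeros the fitted size is not given. Near-identical copies, namely Ndufb4 with Ndufb4c, Ndufs6 with Ndufs6b, Cox6c with Cox6c2, Ndufa11 with Ndufa11b and the -ps pseudogenes, can share reads, and their values are uncertain to that extent.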

How the data were processed

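Libraries of polyadenylated RNA were made from liver and laser-cut SCN with a stranded kit, per the labels' protocols. The deposited tables hold whole-number counts per gene for 36 libraries each. The submitters' processing notes name Trimmomatic, HISAT2, StringTie, DESeq2 and the build GRCm39, without roles or versions.

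From the counts, edgeR 4.0.16 (R 4.3.3) fitted each tissue's 12 groups of diet and time plus sex after TMM scaling and a filter (filterByExpr, minimum count 10), with a robust quasi-likelihood F test and Benjamini-Hochberg adjustment over all genes at 0.05. Rhythm was a test of a 24 h cosine and sine of the time means, and the range is the fitted distance from trough to peak in log2. The diet-by-sex test added an interaction, and tissues were compared in 1 fit of 72 libraries, with no pairing of liver and SCN libraries. Alternatives were limma-voom (limma 3.58.1), DESeq2 1.42.0, library totals, other filters, a replicate block, the kind of library, a length trend, and leaving out libraries. The steps were tested on simulated data. In each tissue 2 control CT08 columns carry no replicate number and are called a and b.

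The members, lists and tests were chosen with earlier results of these data known. Named were, in each comparison, the 8 called members over 1 CPM with the largest change in each direction (for rhythm, the 8 widest ranges) and a fixed set of subunits; further members were named after their values were seen. Values of 1 member are not reported here by name, though it stays in the counts. Promoter sequences are RefSeq's.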

Additional observations from a re-analysis of the deposited data

Results flagged for a closer look

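The effect of diet differed between the tissues for 59 members by a test of the difference itself (liver minus SCN, log2, edgeR adjusted p). The member that was higher was Cox6a2. Its fitted 3.43 (adjusted p = 0.000568) is neither a measured fold nor a bound, since 13 of 18 control liver libraries are at 0, and limma-voom did not call it (adjusted p = 0.072). Among complex I subunits the difference was -0.63 for Ndufa6 (1.6e-08), -0.49 for Ndufa13 (3.12e-06), -0.47 for Ndufb11 (1.24e-06), -0.45 for Ndufb1 (2.61e-05), -0.25 for Ndufv1 (0.000739) and -0.20 for Ndufs1 (0.00387). For complex II it was -0.46 for Sdha (3.53e-09) and -0.44 for Sdhb (8.31e-07), and for complex III -0.46 for Uqcrb (0.000141) and -0.21 for Uqcrc1 (0.0133). In complex IV it was -0.21 for Cox7a2 (0.00795) and -0.20 for Ndufa4 (0.0463). In ATP synthase it was -0.45 for Atp5md (0.000353), -0.35 for Atp5a1 (4.87e-06) and -0.15 for Atp5b (0.017).

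In liver the effect of diet differed between females and males for 2 members by edgeR's interaction test. It was -0.51 for Ndufaf3 (adjusted p = 0.0432) and -0.35 for Cox7a2l (adjusted p = 0.0208). Only 1 of these 2 calls was kept with library totals, with a replicate block, and with the length trend removed.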

How the results depend on the processing

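With library totals in place of TMM, 54 members were called for the liver diet effect (60.1% of all genes). Signs were compared for members named by size of change or in the fixed set, and called under at least 1 scaling. Of these the sign turned for Ndufs1 (0.002), Ndufa4 (0.004), Uqcrc1 (0.032), Uqcrfs1 (0.237) and Cox4i1 (0.096). It also turned for Cox5a (0.048), Cox6a1 (0.218), Cox7a2 (0.011), Cox8a (0.169) and Atp5b (0.074). Members outside that set turned too, such as Atp5h (0.095) and Uqcr10 (0.247). For the diet effect in liver against SCN library totals gave 31 calls (42.4%) and, of the members so named in that comparison, turned Atp5b (0.006). For the control levels Cox4i1 (-0.36) and Cox8a (-0.41) turned among those named. Over all members, 76 were called for the control levels under both scalings, 54 of them in the same direction. Library totals gave 41 rhythmic members in MCD liver (23.7% of all genes) and 3 with a rhythm that differed between diets (3.75%). They gave 2 rhythmic in MCD SCN (15.2%) and 5 that differed between sexes in liver (8.59%). DESeq2 gave 33 rhythmic members in control liver (22.7% of all genes), 26 in MCD liver (32.5%), 1 rhythm difference (10.2%), 5 in MCD SCN (19.7%) and 4 between sexes in liver (12.1%), and limma-voom gave 4 in MCD SCN (19.1%). Without control CT08 library a these liver counts were 30 on MCD (31.0%), 1 rhythm difference (6.28%) and 4 between sexes (12.3%). Removing a length trend gave 3 between sexes in liver (9.78%), the kind of library as a term gave 1 rhythm difference (5.48%), genes of at least 5 CPM gave 3 in MCD SCN (21.0%), and libraries of at least 40 M counts left 0 between sexes in SCN (0.209%). The cause was not tested.

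Samples of 1 number correlated by 0.07 to 0.43 in liver (12 of 15 over 0.1, 12 best with their own number) and -0.09 to 0.28 in SCN (7 over 0.1, 8 best with their own number). Not every pair passed 0.1 and the labels tie no number to a litter, batch or day, so the samples were not treated as pairs; the liver values are a hint of pairing from the data, not the design, and replicate 3 is also the female. With a replicate block 83 members were called for liver diet (82 lower, 1 higher; 46.2% of all genes), 27 rhythmic in MCD liver (29.8%), 1 in rhythm difference (3.43%), 1 in diet by sex (1.67%) and 3 rhythmic in MCD SCN (15.6%). Under it Ndufaf4 (0.213, adjusted p = 0.0901) and Sdhaf1 (0.13, adjusted p = 0.0854) were not called higher on MCD in liver.

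Leaving out 1 library gave 78 to 87 members for liver diet, 44 to 68 at single times, 7 to 42 and 8 to 31 for liver rhythm on control and MCD, 0 to 1 for the rhythm difference, 0 to 2 for diet by sex, 1 to 5 and 1 to 4 for SCN rhythm, 1 to 4 between sexes in liver, 12 to 45 in SCN, and 0 for SCN diet. Leaving out 1 replicate number gave 31 to 44 for diet between tissues and 89 to 91 for control levels. Cox6a2, Cox6b2 and Cox4i2 in liver hold 0 counts in several libraries and Cox7a1 in 2, so their values are imprecise.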

Other observations

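Cox4i2, an isoform of complex IV subunit 4, was listed at 0 in 4 SCN libraries, all female (control CT04 replicate 3, control CT20 replicate 3, MCD CT04 replicate 3 and MCD CT20 replicate 3), while the other 32 libraries held 37 to 158 counts (median 83). Cox7a1 was listed at 0 in MCD CT20 replicate 3, while the other 35 held 37 to 211. Over the SCN table, 962 genes had such a 0 while every library above 0 held at least 20 counts. Control CT20 replicate 3 held 493 of these zeros, MCD CT04 replicate 3 held 461, control CT04 replicate 3 held 306 and MCD CT20 replicate 3 held 120. Their totals were 23.3 M, 25.3 M, 27.5 M and 38.5 M counts. Male libraries of like totals held fewer, 37 in control CT00 replicate 2 (27.5 M) and 19 in MCD CT20 replicate 1 (28.7 M).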
